A study of Mus musculus with 10 samples.

Results

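Genes of vesicle coats, Rab GTPases and membrane traffic were described in mouse liver in which SREBP activity had been raised or its activation impaired. They were the genes whose only symbol in the platform annotation begins as those of Rab and Arf GTPases, coat and adaptor subunits, p24 and TRAPP proteins, sorting nexins, Vps proteins, syntaxins and VAMPs do. The rule found 120 of the 7542 genes with a single symbol on the array. These 120 genes had 165 probe sets, and 34 genes had several. Each gene was read from its probe set with the highest mean over the 10 arrays. The pattern of the symbols also took in 3 Sec14l genes, which encode lipid-binding proteins and no coat, and Rab10os, a transcript from the strand opposite Rab10.

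Livers came from male mice in a pair of experiments. In the first, TgSREBP-1a and TgSREBP-2 mice carried a transgene for the nuclear, transcriptionally active form of human SREBP-1a or SREBP-2, and wild type littermates were the controls. All 3 groups were 12 to 16 weeks old and were fed for 2 weeks on a diet rich in protein and low in carbohydrate, which served to drive the transgenes to a high level. In the second, Scap-/-;MX1-Cre mice, whose liver lacks SCAP, were set against corresponding wild type mice, all 10 to 12 weeks old and on Teklad chow. Both groups of that experiment had received 4 intraperitoneal injections of polyinosinic-polycytidylic acid, the inducer of the Cre, and livers were taken 14 days after the last one. Whether these wild type mice carried the Cre, and which promoter drove the transgenes, is not stated in the sources used here. In every group equal parts of RNA from 5 livers made up 1 pool (20 µg in total), and each pool was hybridised to 2 Affymetrix MG_U74Bv2 arrays. The arrays of a group therefore share all their animals, and a p-value below weighs a difference between 2 pools by the error of hybridisation alone; the variation among animals was not measured.

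Membrane traffic moves proteins and lipids between organelles in vesicles. COPII coats bud vesicles from the endoplasmic reticulum, COPI coats return material from the Golgi, and clathrin with AP adaptors serves the later Golgi and endosomes. Rab GTPases and tethers such as TRAPP mark and dock the vesicle, SNAREs (syntaxins, VAMPs) fuse it, and sorting nexins and Vps proteins sort cargo in endosomes. The hepatocyte uses these routes to secrete lipoproteins and plasma proteins and to take up lipoproteins. The SREBPs themselves depend on them: SCAP carries the SREBP precursor in COPII vesicles, by binding Sec24, to the Golgi, where proteases release the nuclear form. The transgenic proteins lack the membrane part and bypass this step.

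Since SREBPs act by binding promoters, the RefSeq promoter windows of the genes (GRCm38.p6, 250 bases before to 50 after a start) were searched. Windows were found for 93 of the 120 genes (115 windows). A sterol regulatory element, spelled TCACNCCAC on either strand, stood in 2 of the 115 windows (1.74%), against 1.24% of 32851 windows of all genes. These were the windows of Sec24d, a cargo-binding subunit of COPII, and of Vps54, a subunit of the GARP tether at the trans-Golgi network. They are shown because they are the only windows of these genes with that element, beside the window of Sec14l2, a relative of Sec14l4, the gene with the largest rise below. The window of Sec24a, another COPII subunit, is shown as one with none of the motifs searched. Capitals mark the element, the CCAAT box of NF-Y (ATTGG on the other strand) and nothing else; each sequence runs 5′ to 3′ on the strand of its gene.
Sec24d, chr3:123267246-123267545, plus strand: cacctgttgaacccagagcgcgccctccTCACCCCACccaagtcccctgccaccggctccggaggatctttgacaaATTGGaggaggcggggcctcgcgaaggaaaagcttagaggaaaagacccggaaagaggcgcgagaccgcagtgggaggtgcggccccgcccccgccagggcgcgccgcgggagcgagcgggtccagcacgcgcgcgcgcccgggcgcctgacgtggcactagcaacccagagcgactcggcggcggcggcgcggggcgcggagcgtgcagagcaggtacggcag
Vps54, chr11:21238782-21239081, plus strand: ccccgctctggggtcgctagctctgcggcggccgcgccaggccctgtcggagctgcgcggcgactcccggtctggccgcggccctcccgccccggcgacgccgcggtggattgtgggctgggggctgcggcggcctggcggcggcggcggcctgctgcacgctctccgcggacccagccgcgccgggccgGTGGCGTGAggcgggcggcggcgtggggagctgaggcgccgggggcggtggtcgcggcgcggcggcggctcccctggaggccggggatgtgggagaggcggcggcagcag
Sec14l2, chr11:4118680-4118979, minus strand: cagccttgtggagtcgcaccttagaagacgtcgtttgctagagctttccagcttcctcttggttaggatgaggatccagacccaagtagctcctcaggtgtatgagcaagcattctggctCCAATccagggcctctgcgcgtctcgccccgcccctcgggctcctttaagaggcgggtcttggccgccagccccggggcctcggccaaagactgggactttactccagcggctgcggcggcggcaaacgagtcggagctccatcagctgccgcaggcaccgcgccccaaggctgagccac
Sec24a, chr11:51756785-51757084, minus strand: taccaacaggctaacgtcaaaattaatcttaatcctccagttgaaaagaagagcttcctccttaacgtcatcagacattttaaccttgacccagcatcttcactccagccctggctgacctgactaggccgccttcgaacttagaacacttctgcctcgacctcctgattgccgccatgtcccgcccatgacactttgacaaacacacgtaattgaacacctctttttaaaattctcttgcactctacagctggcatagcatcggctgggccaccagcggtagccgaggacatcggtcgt
The window of Sec24d holds the element and a CCAAT box, that of Vps54 the element on its opposite strand, and that of Sec14l2 a CCAAT box alone. The CCAAT box stood in 39 windows (33.9%), against 37.4% of all. The E-box CACGTG, which SREBP-1 can also bind, stood in 15 windows (13%, 14 genes), against 7.15% of all. In the Sec24d window the element and the CCAAT box do not overlap, and a match describes letters, not binding. Neither gene with the sterol element was called in any comparison below. Sec14l4 and Rab30, the genes called in TgSREBP-1a, were not among the 93 genes searched.

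The values are log2 expression values, and differences between groups are log2 differences from limma with its standard error, n = 2 arrays per group. A gene was called, and is said to rise or fall, at a Benjamini-Hochberg adjusted p under 0.05 over all 12411 probe sets and a difference of at least 1.5-fold. Array medians lay between 5.63 and 5.66. Of the 120 genes, 75 had a mean at or above the median of all probe sets, 5.65, and 45 were dimmer. Among the 120 genes the SD between duplicates lay between 0.11 and 0.15 in the 3 pools of the transgenic study and was 0.17 and 0.18 in those of the Scap study. Each array of the Scap study was nearer in correlation to one of the other genotype than to its duplicate, and the second TgSREBP-2 array was nearer to a wild type array. Scap, the targeted gene, read 7.94 and 7.75 on the Scap-/- arrays and 9.24 and 8.89 in their wild type pool; the position of its probe set relative to the deletion is not stated in the sources used here. All 6 measured hepatocyte markers lay above the median of the arrays.

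Most of this machinery was level across the 5 pools. The median gene's 5 group means spanned 0.27, against 0.25 over all probe sets, and 7 of 120 genes (5.83%) spanned at least 1.5-fold, against 8.92% of all. In TgSREBP-1a, 2 of the 120 genes rose and 0 fell, that is 1.67% against 2.18% of all probe sets called (1.36% higher and 0.814% lower). The genes that rose were Sec14l4 and Rab30. The 120 genes had a median difference of -0.01 (all probe sets, -0.02), with 57 above 0 (47.5%, all 44.9%). For 102 genes (85.0%) the 95% interval of the difference lay within 1.5-fold each way, against 87.7% of all probe sets. At an unadjusted p under 0.05 there were 14 genes (11.7%, against 10.3% of all), 12 of them higher (10.0%, all 6.01%) and 2 lower (1.67%, all 4.29%), Rab11fip4 and Snx25. The arrays of both groups did not overlap for 44 genes (36.7%), against 42.4% of all probe sets.

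**Figure D1:**
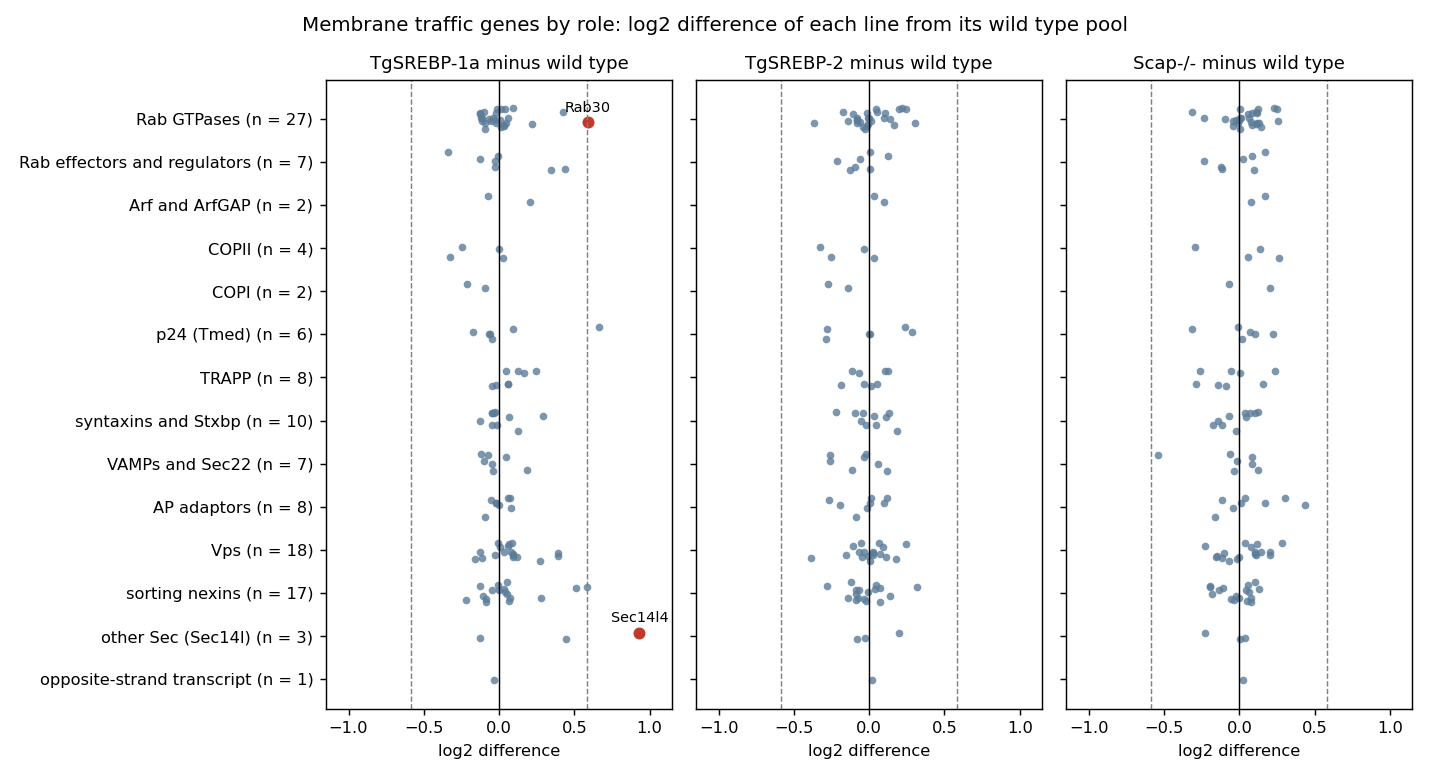
Log2 differences of the 120 genes (points) by role class, in 3 panels that set TgSREBP-1a, TgSREBP-2 or Scap-/- against the wild type pool of the same experiment. Most points lie near 0 in every class; Sec14l4 (0.93) and Rab30 (0.59) were the genes called, both in TgSREBP-1a.

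Sec14l4 encodes a SEC14-like protein of the family that binds and moves lipids. It read 8.64 and 8.37 on the TgSREBP-1a arrays, 7.78 and 7.36 on those of wild type littermates, and 7.70 and 7.85 in TgSREBP-2. In the Scap study its wild type arrays read 8.28 and 7.87 and its Scap-/- arrays 7.97 and 7.72. The TgSREBP-1a arrays were higher than all others, with no overlap. Sec14l4 rose by 0.93 ± 0.18 in TgSREBP-1a (1.91-fold, 95% interval 0.54 to 1.32, adjusted p = 0.018). Without the second wild type array the difference was 0.72 (adjusted p = 0.19), without the first TgSREBP-1a array 0.80 (0.21) and without the second 1.07 (0.053), so the call ended each time; over all 10 alternatives run its adjusted p lay between 0.0019 and 0.21. Its difference was 0.20 ± 0.18 in TgSREBP-2 (adjusted p = 0.82) and -0.23 ± 0.18 in Scap-/- (0.73).

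Sec14l2, the relative also known as supernatant protein factor, which stimulates cholesterol synthesis in cell extracts, read 11.87 and 11.62 in TgSREBP-1a and 11.40 and 11.21 in the wild type pool. The arrays did not overlap, but the difference of 0.45 ± 0.17 was not called (adjusted p = 0.34). After a further quantile normalization it was 0.06. Sec14l3, the third relative, had a difference of -0.13. Whether the probe sets of these related genes share signal was not tested.

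Rab30, a Rab GTPase of the Golgi, was dim, with a mean of 4.99. It read 5.71 and 5.72 in TgSREBP-1a, 5.10 and 5.16 in wild type littermates, and 4.94 and 5.19 in TgSREBP-2. In the Scap study its wild type arrays read 4.42 and 4.52 and its Scap-/- arrays 4.43 and 4.67. The TgSREBP-1a arrays were above all others, and the 4 arrays of the Scap study were below the 6 of the transgenic study. Rab30 rose by 0.59 ± 0.12 in TgSREBP-1a (adjusted p = 0.021), just past the 1.5-fold minimum of 0.585. Leaving out any of the 4 arrays compared ended the call, with differences of 0.56 to 0.62 and an adjusted p of 0.12 to 0.20. Its other probe set, with a mean of 3.78, gave -0.26, and when both were averaged the difference was 0.16 (adjusted p = 0.76); over the 9 alternatives the adjusted p lay between 0.0051 and 0.76.

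**Figure D2:**
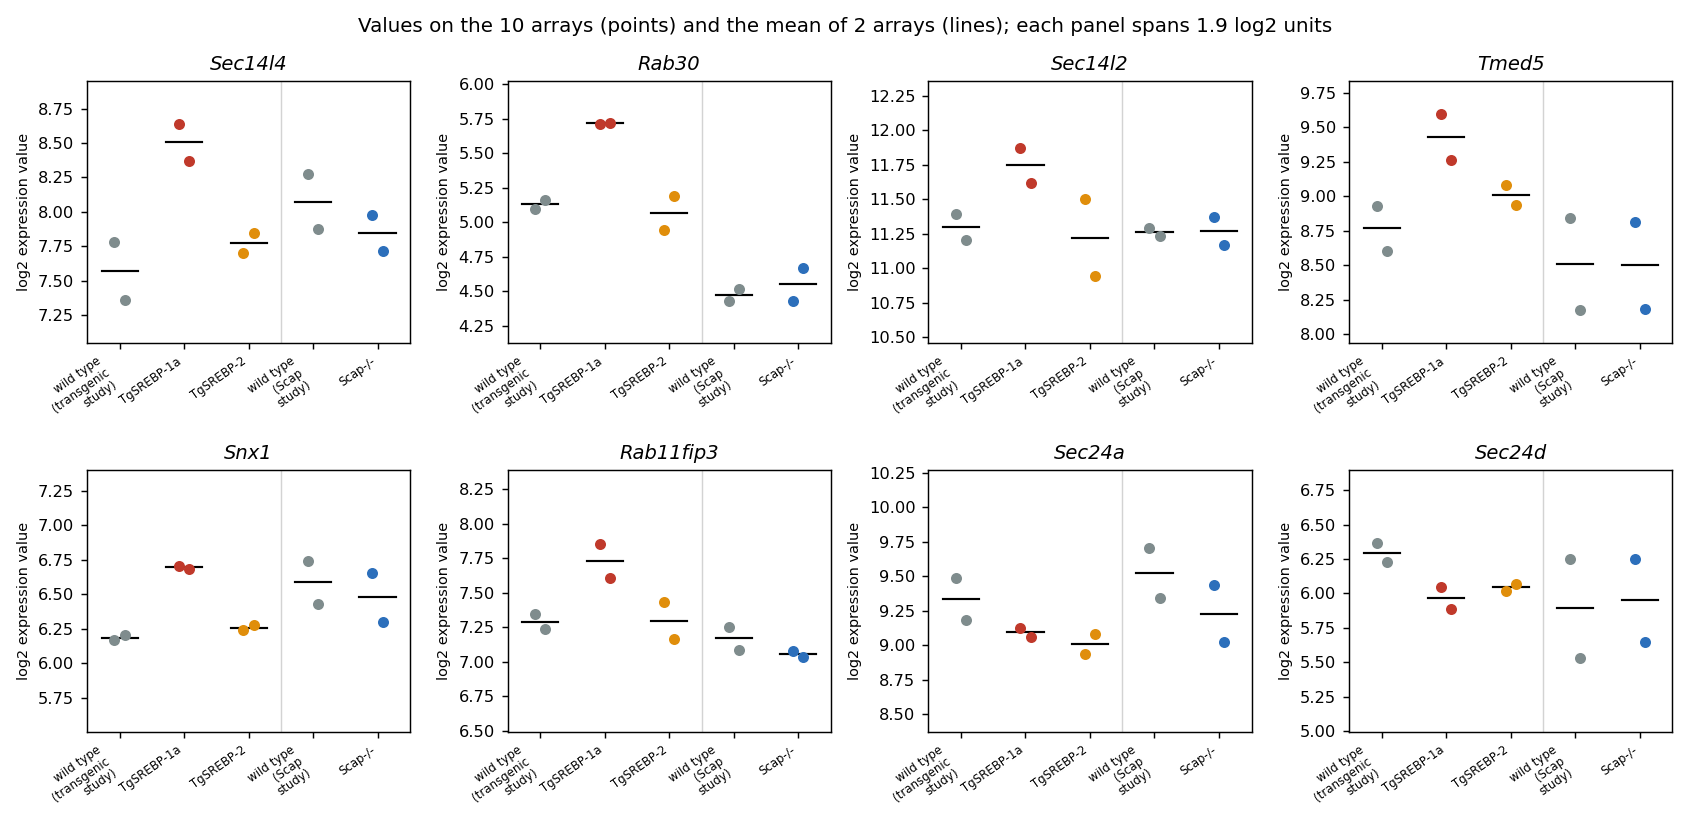
Log2 values of single arrays (points, 2 per group) for members the text describes, by group. Sec14l4 and Rab30 stand highest on both TgSREBP-1a arrays, while the duplicates of the Scap study lie far apart for Tmed5, at 8.84 and 8.18 in the wild type pool and 8.81 and 8.18 in Scap-/-.

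The genes of the earliest steps did not pass the test in TgSREBP-1a. Of the COPII genes, Sec24a read 9.12 and 9.06 in TgSREBP-1a and 9.49 and 9.19 in the wild type pool, a difference of -0.24 ± 0.17 (adjusted p = 0.78). Sec24d, whose promoter window is printed above, read 6.05 and 5.89 against 6.36 and 6.23, a difference of -0.33 ± 0.23 (0.79). Both were lower on each TgSREBP-1a array than on each wild type array, yet neither difference was called. Sec24b differed by 0.00 and Sec23ip, a protein of the sites where COPII buds, by 0.03. The COPI subunits Copg1 and Copg2 differed by -0.10 and -0.21, and Arf4, a GTPase that helps recruit Golgi coats, by 0.20. Arfgap1, which switches Arf1 off, differed by -0.07.

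Tmed5, a p24 cargo receptor that shuttles between endoplasmic reticulum and Golgi, read 9.60 and 9.26 in TgSREBP-1a and 8.93 and 8.60 in the wild type pool. The groups did not overlap, yet the difference of 0.66 ± 0.24, the second in size among the 120 genes, was not called (adjusted p = 0.32). With only the 4 arrays compared it was called (0.030); over its 10 alternatives the adjusted p lay between 0.013 and 0.96. Tmed2, another p24 protein, differed by -0.18, and the other 4 p24 genes by -0.07 to 0.09. None of the 8 TRAPP genes was called, with differences between -0.04 and 0.25.

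Among the other Rab GTPases, the second highest difference after Rab30 belonged to Rab23, known for its part in Hedgehog signalling at the cilium. It read 7.22 and 7.18 in TgSREBP-1a and 6.77 and 6.78 in the wild type pool, 0.43 ± 0.10 apart (adjusted p = 0.062), without overlap and uncalled, and its other probe set gave 0.10. The median over the 27 Rab GTPases was -0.02. Of the partners of Rab11, which runs the recycling endosome, Rab11fip3 stood at 0.44 ± 0.12 (adjusted p = 0.13) and Rab11fip4 at -0.34 ± 0.12 (0.25). Neither was called. Rab11fip2, a dim further partner, read 4.19 and 4.20 in TgSREBP-1a and 4.19 and 4.25 in the wild type pool. Rab3gap2, a subunit of a regulator of Rab3 and Rab18, was at 0.34 ± 0.13 (0.33), while its other 3 probe sets read 0.02, -0.03 and 0.12. Rab23 and Rab11fip2 were chosen after their values were seen. So were Vps13b, Sec22b, Snx25, Trappc6b, Vamp7, Ap1m2, Tmed8, Sec23ip, Sec24b, Sec14l3, Stxbp5 and Vps54.

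In the endosomal classes, Snx1, a membrane-bending sorting nexin that works with retromer, read 6.70 and 6.69 in TgSREBP-1a and 6.17 and 6.20 in the wild type pool. The duplicates were close and the groups apart by 0.51 ± 0.13 (adjusted p = 0.092), short of the call, and its other probe set gave 0.10. Snx7, another sorting nexin, read 6.25 and 6.24 against 5.82 and 5.50, a difference of 0.58 ± 0.20 (0.25). Vps13b, a lipid transfer protein of the Golgi, differed by 0.39 ± 0.10 (0.097) and Vps35l, a subunit of the retriever complex, by 0.39 ± 0.13 (0.24). Of the 18 Vps genes 13 were above 0 and of the 17 sorting nexins 10, with medians of 0.07 and 0.03. On the probe sets used, syntaxins and their binding proteins ranged from -0.13 to 0.29 (Stxbp5, or tomosyn), VAMPs and Sec22 from -0.12 to 0.18, and AP subunits from -0.10 to 0.08. Sec22b, a SNARE of traffic between endoplasmic reticulum and Golgi, differed by -0.10 on the probe set used and by 0.55 on its other one (adjusted p = 0.36).

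**Figure D3:**
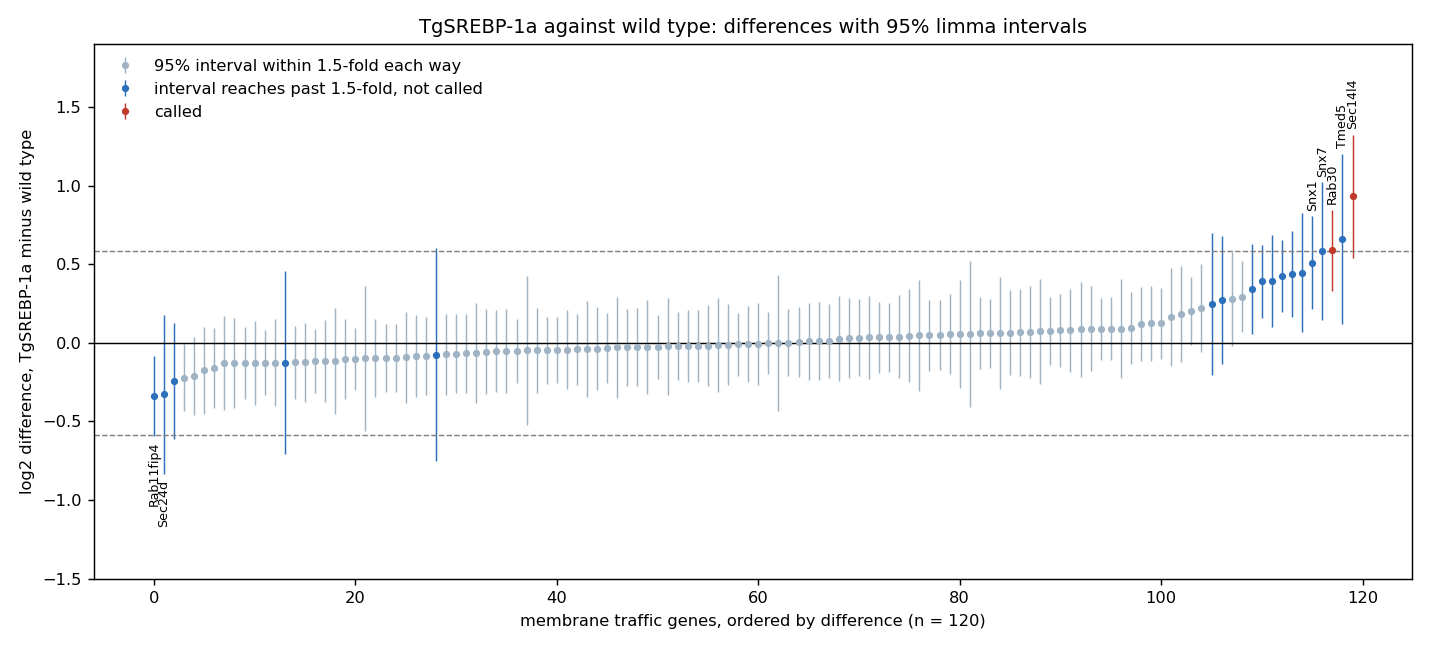
Difference of each of the 120 genes between TgSREBP-1a and its wild type pool, in order of size, with the 95% limma interval. The interval of Sec14l4, 0.54 to 1.32, lies farthest from 0, and 102 of the 120 intervals lie within 1.5-fold each way.

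Markers of cell types moved in the same comparison. Of 6 measured hepatocyte markers 4 fell in TgSREBP-1a (C8a at -2.60, C8b at -2.22, Itih4 at -1.51, Fetub at -1.44). Apoa1 and Hnf4a, at -0.42 each, were not called. The list's summed level was 13.4 to 13.5 on the log2 scale, against 14.1 to 14.3 in the wild type pool. In TgSREBP-2, with 0 hepatocyte calls, it was 13.5 to 14.2, where Apoa1, the brightest of the list, read 13.3 and 12.2. Of 6 endothelial markers Heg1 (1.26) and Lyve1 (0.64) rose, with a summed level of 10.1 to 10.3 against 9.72 to 9.82. Lyve1 was dim, with a mean of 4.83. The rest of that list, Ptprb (0.50), Eng (0.22), Stab2 (0.10) and Stab1 (0.01), was not called. Of 2 macrophage markers, both dimmer than the median, Cd163 rose by 0.91 (summed level 6.01 to 6.11 against 5.34 to 5.37). Timd4, the other macrophage marker, differed by 0.07 and was not called. Of 3 pancreatic acinar genes Cpb1 (-4.67) and Cela3b (-3.84) fell (summed level 7.82 to 7.84 against 10.9 to 11.4). The stellate (3 measured), cholangiocyte (2) and lymphocyte (2) lists had 0 calls in any of the 5 comparisons, and no neutrophil marker was measured. The falls of C8a, C8b, Fetub, Cpb1 and Cela3b were called in all 10 alternatives, while the call of Itih4, Lyve1, Heg1 or Cd163 ended without at least 1 of the 4 arrays (adjusted p = 0.058 to 0.12). The part of these shifts in the values of Sec14l4 and Rab30 was not tested, and in bulk liver fewer cells of a type and less RNA per cell cannot be told apart.

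In TgSREBP-2, 0 of the 120 genes were called by limma, against 0.5% of all probe sets. At an unadjusted p under 0.05 there were 7 genes (5.83%, against 7.92%). The differences ran from -0.39 to 0.32 around a median of -0.01 (all, -0.02), and the 95% interval of 108 genes (90%, all 88.5%) lay within 1.5-fold each way. The arrays of 43 genes (35.8%) did not overlap, against 40.0% of all. Vps54, with the sterol element in its window, had the lowest value, -0.39 ± 0.15 (adjusted p = 0.55). It was dim, with a mean of 5.04, and its duplicates lay apart. It read 4.72 and 5.04 against 5.06 and 5.48 in wild type littermates. Sec24d, the other gene with that element and also uncalled, read 6.02 and 6.07 against 6.36 and 6.23. Rab40c, a Rab with a SOCS box for ubiquitin ligases, read 7.60 and 7.65 on the TgSREBP-2 arrays, below 8.05 and 7.93 in wild type littermates, a difference of -0.36 ± 0.10 (0.29) without overlap. Its other, dimmer probe set gave 0.13, and the mean of both -0.12. Sec24a read 8.94 and 9.08 against 9.49 and 9.19, a difference of -0.33 ± 0.17 (0.66), and Copg2 differed by -0.28 ± 0.11 (0.57). Snx7 stood at 0.32 ± 0.20 (0.73), Rab34 at 0.30 and Tmed2 at 0.29 ± 0.12 (0.61). Of the marker genes, the acinar Ctrc (1.51) rose, and so did Tfrc (1.5), the only measured gene of the erythroid list. Tfrc was dim, with a mean of 5.21, and stands in the list of endocytic receptors below as well.

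Since both lines share their wild type arrays, their values stand side by side without a correlation: Sec14l4 0.93 and 0.20, Rab30 0.59 and -0.06, Tmed5 0.66 and 0.24, Snx1 0.51 and 0.07, Sec24a -0.24 and -0.33, for TgSREBP-1a and TgSREBP-2. Tested directly between the lines, 1 of the 120 genes was called (0.833%, against 1.86% of all probe sets). Rab30 was higher in TgSREBP-1a by 0.65 ± 0.12 (adjusted p = 0.015), with -0.31 on its other probe set and 0.17 for the mean of both (0.52). The call ended without either TgSREBP-1a array (0.65 and 0.64, adjusted p = 0.13 and 0.11) or the first TgSREBP-2 array (0.52, 0.15); over the 9 alternatives the adjusted p lay between 0.0031 and 0.52. Sec14l4 was 0.73 ± 0.18 higher and missed the threshold (adjusted p = 0.068, 0.010 to 0.46 over its alternatives). Sec14l2 stood at 0.53 ± 0.17 (0.18). Without the first TgSREBP-2 array it was 0.81 (adjusted p = 0.047), without the second 0.25 (0.40), and after quantile normalization 0.14 (0.71), with an adjusted p of 0.032 to 0.71 over its alternatives. Tmed2 had the lowest value, -0.46 ± 0.12 (0.10), reading 6.48 and 6.64 on the TgSREBP-1a arrays, below the 7.13 and 6.91 of TgSREBP-2. Unadjusted, 17 genes passed (14.2%, all 14.7%), and the interval of 95 genes (79.2%, all 83.6%) lay within 1.5-fold. The arrays of 58 genes (48.3%) did not overlap, against 46.1% of all. Between the lines the hepatocyte markers C8a, C8b, Itih4 and Fetub were also lower in TgSREBP-1a. So were the acinar Cpb1 (-5.30), Cela3b (-4.47) and Ctrc (-1.72). The endothelial Heg1, Ptprb and Lyve1 and the macrophage Cd163 were higher. The calls of Itih4 and Ptprb ended without either TgSREBP-1a array or the first TgSREBP-2 array (-1.48, -1.24 and -0.92 for Itih4, 0.95, 1.09 and 0.79 for Ptprb), and the part of these markers was not tested.

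In Scap-/- liver, 0 of the 120 genes were called by limma, against 0.274% of all probe sets, and 2, Ap1m2 and Tmed8, had an unadjusted p under 0.05 (1.67%, against 7.74%). The median difference was 0.03 (all, 0.02), and 109 genes (90.8%, all 87.5%) had a 95% interval within 1.5-fold each way. The arrays of 37 genes (30.8%) did not overlap, against 34.4% of all. The COPII subunit Sec24a read 9.44 and 9.02 in Scap-/- against 9.71 and 9.34 in the wild type pool, a difference of -0.30 ± 0.17 (adjusted p = 0.69). Sec24d read 6.25 and 5.65 against 6.25 and 5.53, a difference of 0.06 ± 0.23. For both genes the duplicates of a pool lay at least as far apart as the pools. Vamp7, a SNARE of late endosomes, had the lowest value, -0.54 ± 0.31 (0.69), but its wild type arrays alone read 6.17 and 5.21. Ap1m2, the epithelial AP-1 subunit, had the highest, 0.44 ± 0.19 (0.65), from dim values. Rab32 and Tmed8 both stood at -0.32 (0.70 and 0.61) and Copg1 at 0.21 ± 0.11 (0.68). Leaving out single arrays moved Rab32 between -0.60 and -0.03, Copg1 between 0.05 and 0.36 and Sec24a between -0.50 and -0.09. Of all 120 genes 71 were above 0 (59.2%, all 54.4%), and of the 27 Rab GTPases 20, with a median of 0.06. The acinar genes Cpb1 (-3.21) and Cela3b (-1.89) fell in Scap-/-, and no hepatocyte marker was called. Cela3b also differed between the wild type pools, as given below.

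Whether genes higher with more SREBP-1a were lower without SCAP could be described without shared arrays. Over the 120 genes the differences in TgSREBP-1a and in Scap-/- correlated across genes at -0.10 (Pearson) and 0.05 (Spearman), against -0.04 and -0.02 over all 12411 probe sets. Signs were opposite for 55 genes (45.8%), against 52.2% of all probe sets. For TgSREBP-2 and Scap-/- the values were 0.24 and 0.19, against -0.02 and 0.13. Genes are not independent replicates, and the points within a comparison come from the same 4 arrays. Sec14l4 (0.93 and -0.23) and Trappc6b, a TRAPP subunit (0.25 and -0.26), were the 2 genes above 0.2 in TgSREBP-1a and below -0.2 in Scap-/- (1.67%, against 2.8% of all probe sets).

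**Figure D4:**
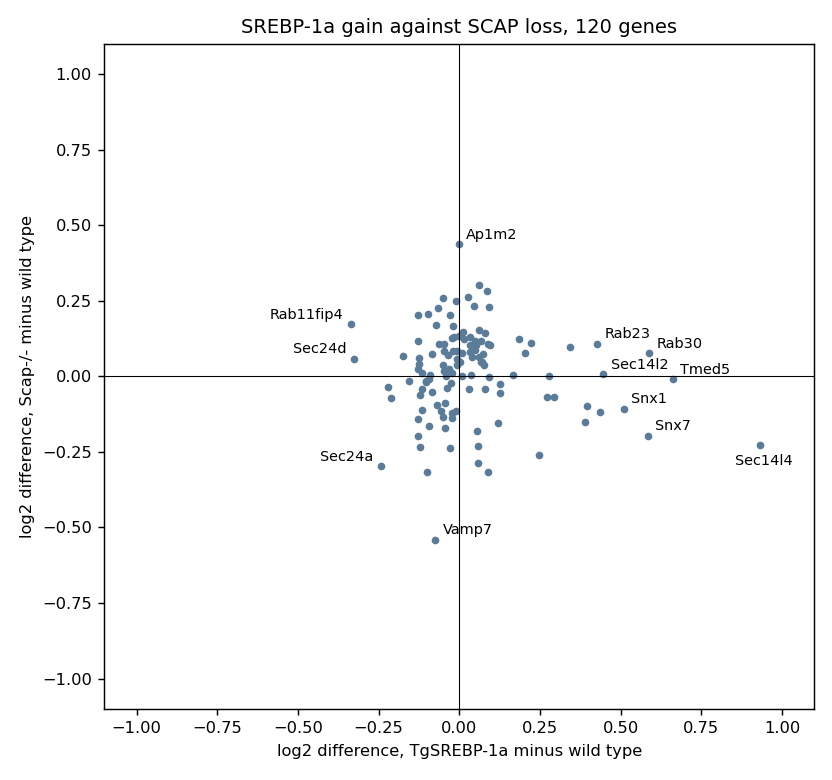
Log2 difference of each of the 120 genes in Scap-/- (vertical) against that in TgSREBP-1a (horizontal), each relative to its own wild type pool. The points form a cloud around 0 (Pearson r -0.10), with Sec14l4 far to the right at 0.93 and -0.23 and Vamp7 lowest at -0.54.

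The wild type pools differed in age range, diet, injections and study, which cannot be told apart, and their comparison gives the size of differences without a transgene or knockout. Here 1 of the 120 genes was called (0.833%, against 0.508% of all probe sets): Rab30 was 0.66 ± 0.12 higher in the transgenic study's pool (adjusted p = 0.040), close to its difference in TgSREBP-1a. Its other probe set gave 0.25. The call ended without the first Scap wild type array (0.61, adjusted p = 0.22), the second (0.70, 0.053), or the first or second wild type array of the transgenic study (0.69, 0.22 and 0.63, 0.36); over the 9 alternatives the adjusted p lay between 0.0071 and 0.36. Unadjusted, 13 genes passed (10.8%, all 9.7%), 10 of them lower in the transgenic study's pool (8.33%, all 5.65%). Sec23ip read 4.79 and 4.96 there and 5.56 and 5.26 in the Scap study's pool, a difference of -0.53 ± 0.12 (0.12). Sec14l4 stood at -0.50 ± 0.18 (0.36), Rab43, a Golgi Rab, at -0.48 ± 0.11 (0.14) and Rab11fip4 at 0.50 ± 0.12 (0.13). Ap2b1, the beta subunit of the endocytic adaptor, was at 0.38 ± 0.10 (0.18), with -0.04 on its other probe set and 0.17 for the mean of both. The interval of 100 genes (83.3%, all 87.8%) lay within 1.5-fold, and the arrays of 44 (36.7%, all 42.0%) did not overlap. Of the acinar markers, Cela3b was called 1.61 higher in the transgenic study's pool (limma, adjusted p = 0.0031). Cpb1 was 0.88 higher there (0.15) and was not called. Ctrc differed by 0.15 and was not called either. Of the 3 acinar genes measured, only Cela3b was thus called between pools without a transgene or knockout.

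The genes whose 5 group means ran most like those of the 2 called genes were looked up among 1030 probe sets with a single symbol whose means spanned at least 0.58. For Rab30 these were Tmem87b (r = 0.997), Rasgrp2 (0.993) and Lpin1 (0.992), the last a phosphatidate phosphatase of triglyceride synthesis. For Sec14l4 they were Slc35f5 (0.993), Commd10 (0.993) and Aldh9a1 (0.988). With only 5 means, such values are a description.

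Over 6 further lists of the pathway with 112 measured genes, 2 were called in TgSREBP-1a (1.79%, against 2.18% of all probe sets), 2 in TgSREBP-2 (all 0.5%), 2 in Scap-/- (all 0.274%), 2 between the lines (all 1.86%) and 1 between the wild type pools (all 0.508%). Of 15 measured cargo receptors and coat partners 0 were called in any comparison (Yif1b -0.06 and Tfg -0.09 in TgSREBP-1a), nor were any of 26 regulators of Rab and Arf GTPases (Tbc1d17 -0.09, Iqsec1 0.05) or 19 clathrin, endocytosis and ESCRT genes (Ehd4 0.09, Itsn1 -0.12). Of 35 further fusion and tethering genes, Gcc2, a golgin that tethers vesicles at the trans-Golgi, rose in TgSREBP-1a by 0.93 ± 0.15 (adjusted p = 0.0062). It read 7.04 and 6.74 there, 6.0 and 5.92 in the wild type pool and 5.78 and 5.91 in TgSREBP-2, and was 1.04 ± 0.15 higher than in TgSREBP-2 (0.0037). The first call of Gcc2 ended without either wild type array (0.97 and 0.89, adjusted p = 0.052 and 0.069) or the first TgSREBP-1a array (0.78, 0.092), the second without the first array of either line (0.89 and 0.98, 0.063 and 0.051). Ykt6 (0.14) and Cog4 (0.04) were not called. Of 10 endocytic and sorting receptors, Tfrc, the transferrin receptor, rose in TgSREBP-2 by 1.5 ± 0.23 (0.016) and was lower by 1.38 in TgSREBP-1a than in TgSREBP-2, while the sortilin gene Sort1 differed from wild type by -0.05 and 0.01 in these lines. The Tfrc call in TgSREBP-2 ended without any 1 of the 4 arrays (1.34 to 1.66, adjusted p = 0.067 to 0.17), and that between the lines without either TgSREBP-1a array or the second TgSREBP-2 array (-1.49, -1.27 and -1.22, adjusted p = 0.071, 0.10 and 0.052). Of 7 genes of SCAP and SREBP transport, Insig1, which holds SCAP back from COPII vesicles, rose by 3.03 ± 0.24 with SREBP-1a and by 2.36 ± 0.24 with SREBP-2. Insig1 fell by 2.53 ± 0.24 in Scap-/- and was 1.31 lower in wild type mice of the transgenic study than in those of the Scap study. Scap fell by 1.22 ± 0.18 in Scap-/- (adjusted p = 0.018), a call that ended without either Scap-/- array (-1.32 and -1.12, adjusted p = 0.058 and 0.23) or the first wild type array (-1.05, 0.15), with 4 arrays only (0.16) or with both of its probe sets averaged (-0.55, 0.25). The Insig1 call between the wild type pools ended with 4 arrays only (0.22) and without 3 of the 4 arrays (-1.39 to -0.90, 0.15 to 0.40), and its call in Scap-/- with 4 arrays only (0.12). Insig2 was not called (0.32, -0.64 and -0.19 in TgSREBP-1a, TgSREBP-2 and Scap-/-). In the same 3 comparisons Sec24a differed by -0.24, -0.33 and -0.30, and was called in none. Over the 4 COPII genes, Sec24a among them, the medians were -0.12, -0.14 and 0.10. Of these 4 genes, 3 were below 0 in each transgenic line. In Scap-/- only 1 was, and the 4 ranged from -0.30 to 0.26.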

How the data were processed

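The deposited values of 10 arrays (2 per pool, 5 pools) are on the log2 scale and, per the submitters' processing notes, come from RMA; the series' design text names Microarray Suite 5.0 instead. Version and genome build are not given in the sources used here. RMA evens out array distributions, and the array medians were alike, so a shift shared by most genes would not be seen. The deposited distributions were not identical, since a further quantile normalization still moved values. It lowered the difference of Sec14l2, a bright gene, as given above, and took the probe sets called in TgSREBP-1a from 270 to 305. Of 12477 probe sets, 66 controls were left out and 12411 were tested with limma 3.58.1 in R 4.3.3 (lmFit and eBayes, all 10 arrays, 1 coefficient per group, two-sided). The median standard error of a log2 difference was 0.115. The number of arrays limits the precision. Correlations, counts and motif searches used Python 3.11.15 with pandas 2.3.3. The procedure was tested on simulated data with independent noise on each array. Those data held no variation among animals and no effect shared by same-numbered arrays, so that test does not cover either.

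All 120 symbols matched RefSeq, and 0 changed. No filter on low values was applied. The genes and lists were chosen with earlier results of these data known. Named were called genes, the 5 highest and 5 lowest per comparison among genes at or above the median level, the 2 brightest of each role class, called genes whose probe sets disagreed, the 3 genes most like a called one, and called or brightest genes of other lists; exceptions are given as such. The lists comprised cargo receptors and coat partners, fusion and tethering genes, Rab and Arf regulators, clathrin and ESCRT genes, receptors, SCAP and SREBP transport, and markers of 9 cell types. Alternatives were fewer arrays, a replicate block, probe set means, a filter on dim probe sets, quantile normalization, a trended robust eBayes, no minimum fold and leaving out each array.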

Additional observations from a re-analysis of the deposited data

Results flagged for a closer look

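Rab30 was flagged because its values differed between the transgenic lines by a test of that difference: the TgSREBP-1a pool exceeded the TgSREBP-2 pool by 0.65 (limma, adjusted p = 0.015), with a dim probe set and a second probe set at -0.31.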

How the results depend on the processing

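In TgSREBP-1a 2 genes were called, against 3 with only the 4 arrays compared (Tmed5 besides), 1 with the mean of all probe sets, 1 without dim probe sets and 0 to 1 when an array was left out. Between the transgenic lines 1 gene, Rab30, was called, against 2 with only the 4 arrays compared and 2 with quantile normalization. The count was 0 with the mean of all probe sets and 0 without dim probe sets. When an array was left out Rab30 differed by 0.52 to 0.77, and its call did not hold in every such fit. Without the first TgSREBP-2 array the gene called was Sec14l2, not Rab30. Between the wild type pools 1 gene, Rab30, was called, against 0 with only the 4 arrays, 0 with probe set means and 0 without dim probe sets. When an array was left out Rab30 differed by 0.61 to 0.70, and its call held in none of these fits. Without the second Scap wild type array the gene called was not Rab30. In TgSREBP-2 and Scap-/- the count was 0 in every alternative run. Replicate numbers were not known to pair the arrays. Deviations of same-numbered arrays from their group means correlated at 0.60 in the Scap study. With the wild type pool of their study they correlated at 0.41 for TgSREBP-1a and 0.06 for TgSREBP-2. Between groups of different studies these correlations ran from -0.17 to 0.47, the highest for the wild type pools, so they were not confined to a study. With the replicate block the counts were 3 in TgSREBP-1a (Tmed5 besides), 2 between the lines, 1 between the wild type pools and 0 in the others. Of 527 alternatives of 53 single values, 500 kept direction and call, 18 lost the call, 6 gained it and 3 changed sign: Tmed5 between the wild type pools (-0.073 to 0.591 over arrays left out, lowest without the second Scap wild type array), Trappc13 in Scap-/- with probe set means (-0.017) and Trappc8 in Scap-/- (-0.609 to 0.038, highest without the first wild type array). The cause was not tested. Of the 120 genes 45, Rab30 among them, lay below the median level of all probe sets; no detection calls were used.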
